A study of Mus musculus with 12 samples.

Results

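The genes of the endoplasmic reticulum (ER) stress response and the secretory pathway described here are a list of 34 genes, out of 40840 gene symbols counted in the series. They were chosen by symbol for their roles, with earlier results of these data known. The list holds the 3 sensors of the unfolded protein response (UPR), 3 UPR transcription factors, 9 ER lumenal chaperones and co-chaperones, 2 lectin chaperones and 3 protein disulfide isomerases. It also holds 7 genes of ER-associated degradation (ERAD), 3 genes of the translocon and 4 targets of the integrated stress response. All 34 were present in the count files, and 33 of them were among the 13570 genes that passed the filter on low counts. Chac1, an ATF4 target whose product degrades glutathione, did not pass and was not tested. Its means in counts per 1000000 counts of the library (CPM) were 0.0872 (WT Day 3), 0.359 (Il6-/- Day 3), 0.0170 (WT Day 5) and 0.185 (Il6-/- Day 5).

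RNA-seq was done on transferred OTII T cells, which are CD4+ and carry a transgenic receptor for a peptide of ovalbumin (OVA). The recipients were WT or Il6-/- mice that were sensitized intranasally (i.n.) with house dust mite (HDM) extract and OVA, with LPS added according to the methods of the study. On Day 3 or Day 5, donor cells stained for CD4, CD44, B220 and a congenic marker were sorted from the mediastinal lymph nodes (mLN), with 3 replicates in each of the 4 groups. The Il6 deletion was carried by every tissue of the Il6-/- recipients and not by the transferred cells. In the labels, the tissue is blood and LPS is not named. The labels do not say whether replicates came from separate mice, so p-values measure the spread between these samples, which may be technical.

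Proteins bound for secretion or the cell surface enter the ER through the translocon, are folded by chaperones and disulfide isomerases, and are passed to ERAD when they fail to fold. When unfolded protein accumulates, IRE1 splices Xbp1 mRNA, ATF6 is cleaved to an active fragment, and PERK phosphorylates eIF2, which slows translation in general and favors that of ATF4. T cells that grow and divide after activation, and effector cells that secrete cytokines, are known to draw on this machinery.

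Between 16125947 and 26111657 reads were counted on genes in each library, of which the 34 genes took 0.649% to 0.740% on Day 3 and 0.494% to 0.569% on Day 5. The share of reads that fell on genes was 60.2% to 62.2% on Day 3 and 52.5% to 56.7% on Day 5, and that on no feature was 11.7% to 12.9% and 15.2% to 17.3%. The 8 CD4 T cell markers summed to 7467 to 9231 CPM on Day 3 and to 11986 to 13823 CPM on Day 5, and all 8 rose in both recipients. The sums on Day 3 and Day 5 were 5.19 to 8.52 and 6.97 to 10.8 CPM for B cell markers, and 2.497 to 3.89 and 2.99 to 7.15 CPM for plasma cell markers. For myeloid and dendritic cell markers they were 95.8 to 104 and 114 to 155 CPM, with Clec9a at 0 in all libraries, and for lung epithelium markers 0.692 to 11.9 and 2.86 to 22.5 CPM. For CD8 T cell markers they were 56.6 to 85.9 and 56.6 to 74.4 CPM. Cd79a, Csf1r, Siglech, Cst3 and Sftpb of these lists rose by day in both recipients and Cd8a fell in both. No other gene of the lists for other cells was called in the same direction in both. Cst3, at 82.8 to 112 CPM, held most of the myeloid and dendritic sum. Cd8a was at 0 to 1.70 CPM, and Cd8b1, which was not called, held most of the CD8 sum at 56.3 to 84.2 CPM. Proliferation genes summed to 6371 to 7074 CPM on Day 3 and to 685 to 1977 CPM on Day 5. Immediate early and heat shock genes, listed as handling-induced genes, summed to 1035 to 1430.0 CPM on Day 3 and to 1692 to 3331 CPM on Day 5. The name is that of the list, and whether handling raised them in these cells was not tested. In both recipients, replicate 2 had the lowest sum of handling-induced genes on Day 5, at 1856 CPM against 2629 and 2659 CPM in WT and at 1692 CPM against 3224 and 3331 CPM in Il6-/- recipients. It also had the highest sum of proliferation genes, at 1075 CPM against 685 and 1011 CPM in WT and at 1977 CPM against 938 and 1392 CPM in Il6-/- recipients.

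The first comparison was between the days, in cells primed in WT and in Il6-/- recipients separately. Most chaperones and all lectin chaperones and disulfide isomerases were lower on Day 5, by up to 2.79-fold in WT and 2.89-fold in Il6-/- recipients for Sdf2l1. Dnajb9, Ddit3 and Ppp1r15a were higher on Day 5 in both. In WT recipients, 4 of the 33 genes tested rose and 17 fell at an FDR under 0.05 in the quasi-likelihood test of edgeR, against 29.5% of all genes tested that rose and 27.1% that fell. In Il6-/- recipients, 3 rose and 18 fell, against 30.4% and 30.1% of all genes. The share that fell was above that of all genes, and the share that rose below it, in both recipients. A fall of at least 2-fold at that FDR was found for 7 genes in WT recipients, against 9.39% of all genes, and for 7 in Il6-/- recipients, against 11.4%. The median log2 fold change of the 33 genes was -0.24 in WT and -0.35 in Il6-/- recipients, beside 0.09 and 0.09 over all genes tested.

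The same 15 genes fell and the same 3 rose in both recipients. In sorted bulk cells, a smaller share of cells that express a gene and less RNA per cell cannot be told apart. Of 12 proliferation genes, 12 fell in both recipients, and of 12 handling-induced genes, 7 rose and 1 fell in WT and 10 rose and 1 fell in Il6-/- recipients. The part of these genes, of the markers above or of the share of reads on genes in the changes by day was not tested. Without a scaling factor, 37.5% of all genes rose and 24.6% fell in Il6-/- recipients, and 5 of the 33 genes rose and 16 fell. Without both Day 5 replicate 2 libraries, left out together after the data were seen, 4 rose and 19 fell in WT recipients (25.1% and 27.5% of all genes), and 3 rose and 18 fell in Il6-/- recipients (29.8% and 28.5%).

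**Figure D1:**
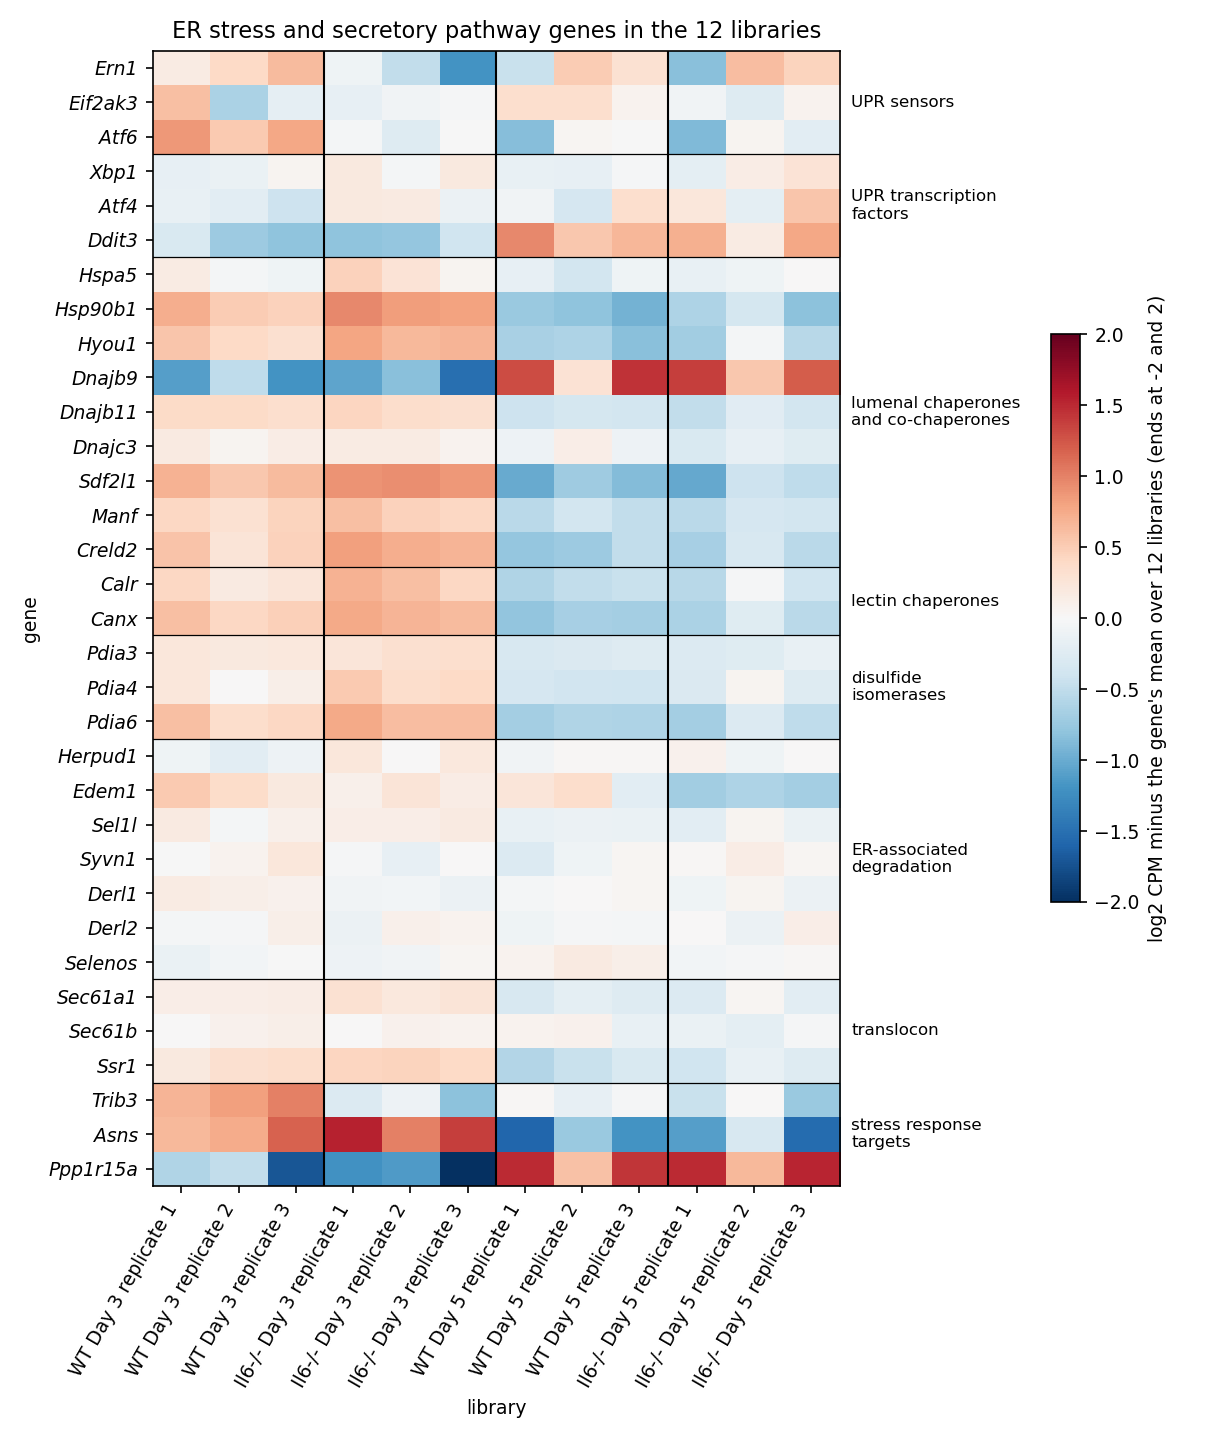
Heat map of the 33 genes tested (rows, grouped by role) in the 12 libraries (columns), where the color is log2 CPM minus the mean of that gene over the 12 libraries. Most chaperone and disulfide isomerase rows are red in the 6 Day 3 libraries and blue in the 6 Day 5 libraries, and the rows of Dnajb9, Ddit3 and Ppp1r15a show the opposite.

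Among the 3 sensors, which had low levels, Atf6 fell by day in WT recipients. Ern1, which encodes IRE1, measured 4.02, 4.75 and 5.59 CPM in the WT Day 3 libraries and 3.38, 2.55 and 1.56 CPM in the Il6-/- Day 3 libraries. Ern1 levels on Day 5 were 2.65, 5.09 and 4.42 CPM (WT) and 2.01, 5.51 and 4.89 CPM (Il6-/-). Its groups overlapped between days in both recipients, whereas on Day 3 every Il6-/- library was below every WT library. The log2 fold change by day was -0.24 ± 0.37 in WT (edgeR FDR = 0.599) and 0.73 ± 0.38 in Il6-/- recipients (edgeR FDR = 0.109), where ± is the standard error here and at every log2 fold change that follows. Eif2ak3, which encodes PERK, measured 10.8, 4.60 and 6.35 CPM in the WT Day 3 libraries and 6.39, 6.79 and 7.01 CPM in the Il6-/- Day 3 libraries. Eif2ak3 levels on Day 5 were 9.01, 9.04 and 7.48 CPM (WT) and 6.83, 5.98 and 7.55 CPM (Il6-/-). The days overlapped in both recipients, and Eif2ak3 was not called (edgeR FDR = 0.468 and 0.97).

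Atf6, the sensor that becomes a transcription factor once cleaved, measured 35.5, 27.9 and 33.2 CPM in the WT Day 3 libraries and 18.9, 16.2 and 19.2 CPM in the Il6-/- Day 3 libraries. Atf6 levels on Day 5 were 10.8, 20.1 and 19.3 CPM (WT) and 10.6, 20.2 and 16.9 CPM (Il6-/-). The WT Day 3 libraries lay above all 9 others. Atf6 fell from Day 3 to Day 5 in WT recipients, with a log2 fold change of -0.95 ± 0.23 (edgeR FDR = 0.00233). In Il6-/- recipients the change was -0.19 ± 0.23 and was not called (edgeR FDR = 0.487). The difference between these changes was 0.75 ± 0.32 and was not called either (edgeR FDR = 0.202). An antisense gene, Gm9929, overlaps exons of Atf6 over 285 bases, and reads from there cannot be assigned to 1 of them without strand.

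Of the 3 transcription factors, Ddit3 rose in both recipients, and Xbp1 and Atf4 were not called. Xbp1, which drives chaperone and ERAD genes once its mRNA is spliced, measured 111, 113 and 129.8 CPM in the WT Day 3 libraries and 143, 121 and 143 CPM in the Il6-/- Day 3 libraries. Xbp1 levels on Day 5 were 112, 111 and 122 CPM (WT) and 109, 138 and 149.7 CPM (Il6-/-). The days overlapped in both recipients, with log2 fold changes of -0.03 ± 0.11 in WT and -0.04 ± 0.11 in Il6-/- recipients (edgeR FDR = 0.809 and 0.787). Counts per gene do not tell spliced from unspliced Xbp1 mRNA, and 1526 bases of its exons overlap Ccdc117 on the other strand. Atf4, whose translation rises when eIF2 is phosphorylated, measured 92.6, 88.9 and 77.2 CPM in the WT Day 3 libraries and 118, 117 and 95.4 CPM in the Il6-/- Day 3 libraries. Atf4 levels on Day 5 were 98.3, 81.9 and 129.8 CPM (WT) and 120.5, 90.1 and 152 CPM (Il6-/-). Here too the days overlapped, with log2 fold changes of 0.26 ± 0.18 and 0.14 ± 0.17 (edgeR FDR = 0.217 and 0.511).

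Ddit3, which encodes CHOP, measured 11.9, 8.85 and 8.36 CPM in the WT Day 3 libraries and 8.45, 8.59 and 11.1 CPM in the Il6-/- Day 3 libraries. Ddit3 levels on Day 5 were 28.7, 21.2 and 23.3 CPM (WT) and 24.1, 16.4 and 25.1 CPM (Il6-/-). Every Day 5 library lay above every Day 3 library. Ddit3 rose by 1.33 ± 0.19 on the log2 scale in WT (edgeR FDR = 3.06e-05) and by 1.22 ± 0.19 in Il6-/- recipients (edgeR FDR = 5.96e-05).

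Of the 9 lumenal chaperones and co-chaperones, 6 fell and 1 rose in WT recipients, and 8 fell and 1 rose in Il6-/- recipients. Their median log2 fold changes were -0.85 and -0.91. Hsp90b1, which encodes GRP94, the HSP90 of the ER, measured 569, 487 and 469.8 CPM in the WT Day 3 libraries and 664, 611 and 599 CPM in the Il6-/- Day 3 libraries. Hsp90b1 levels on Day 5 were 205, 196 and 178 CPM (WT) and 223, 268 and 193 CPM (Il6-/-). All Day 3 libraries were above all Day 5 libraries, with log2 fold changes of -1.40 ± 0.11 in WT (edgeR FDR = 9.70e-08) and -1.45 ± 0.11 in Il6-/- recipients (edgeR FDR = 5.16e-08). Sdf2l1, a partner of the co-chaperone ERdj3, measured 166, 149 and 159 CPM in the WT Day 3 libraries and 193, 196 and 188 CPM in the Il6-/- Day 3 libraries. Sdf2l1 levels on Day 5 were 51.2, 63.02 and 56.3 CPM (WT) and 50.5, 76.9 and 72.1 CPM (Il6-/-). The days did not overlap, and the log2 fold changes were -1.48 ± 0.13 (edgeR FDR = 1.79e-07) and -1.53 ± 0.13 (edgeR FDR = 9.62e-08).

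Creld2, a secreted protein of the ER stress response, measured 94.7, 76.5 and 87.7 CPM in the WT Day 3 libraries and 112, 105 and 102 CPM in the Il6-/- Day 3 libraries. Creld2 levels on Day 5 were 37.4, 38.5 and 45.4 CPM (WT) and 40.2, 51.3 and 43.9 CPM (Il6-/-). Day 3 and Day 5 did not overlap, and Creld2 fell in WT (-1.09 ± 0.11, edgeR FDR = 8.81e-07) and in Il6-/- recipients (-1.24 ± 0.11, edgeR FDR = 2.05e-07). Manf, whose product binds the chaperone BiP and can be secreted, measured 135, 126 and 139 CPM in the WT Day 3 libraries and 155, 140.3 and 136 CPM in the Il6-/- Day 3 libraries. Manf levels on Day 5 were 70.1, 79.6 and 73.0 CPM (WT) and 70.1, 81.0 and 79.2 CPM (Il6-/-). These were all below the Day 3 levels, with log2 fold changes of -0.85 ± 0.08 (edgeR FDR = 8.01e-07) and -0.91 ± 0.08 (edgeR FDR = 3.25e-07). The exons of Manf overlap those of Rbm15b on the same strand and of Dcaf1 on the other, so that its level is uncertain.

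Hspa5, which encodes BiP, the main HSP70 of the ER, had smaller changes by day. Its Day 3 means were 519 ± 49.4 CPM (WT) and 619.9 ± 87.2 CPM (Il6-/-), and its Day 5 means 446 ± 44.0 CPM and 487 ± 27.7 CPM (SD, n = 3). The log2 fold change of -0.22 ± 0.10 in WT recipients was not called (edgeR FDR = 0.0863). That of -0.35 ± 0.10 in Il6-/- recipients was called (edgeR FDR = 0.01), but not without Il6-/- Day 3 replicate 1 (edgeR FDR = 0.0646) or without a scaling factor (edgeR FDR = 0.123). The test of the difference between recipients gave -0.13 ± 0.15 (edgeR FDR = 0.686). Over 2457 bases, the exons of Hspa5 overlap those of Rabepk on the other strand. Hyou1, a nucleotide exchange factor of BiP, fell in WT (-1.12 ± 0.14, edgeR FDR = 6.15e-06) and in Il6-/- recipients (-1.11 ± 0.14, edgeR FDR = 5.44e-06). Dnajb11, which encodes ERdj3, also fell in both (-0.75 ± 0.08 and -0.72 ± 0.08, edgeR FDR = 9.70e-07 and 1.12e-06). Dnajc3, a co-chaperone also known to inhibit PERK, fell in Il6-/- recipients (-0.37 ± 0.08, edgeR FDR = 0.00105) and had -0.14 ± 0.08 in WT recipients (edgeR FDR = 0.157). The difference between the recipients was -0.23 ± 0.11 (edgeR FDR = 0.27).

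Dnajb9, which encodes ERdj4, a co-chaperone that helps BiP hold IRE1 inactive, rose in both recipients, in contrast to the other chaperones called. Its libraries are given for that direction, chosen after its values were seen. Dnajb9 measured 10.8, 16.3 and 10.04 CPM in the WT Day 3 libraries and 11.1, 12.9 and 8.10 CPM in the Il6-/- Day 3 libraries. Dnajb9 levels on Day 5 were 57.2, 28.0 and 63.01 CPM (WT) and 60.1, 33.5 and 53.5 CPM (Il6-/-). All Day 5 libraries were above all Day 3 libraries, and replicate 2 was the lowest on Day 5 in both recipients. The log2 fold change was 2.00 ± 0.29 in WT (edgeR FDR = 3.40e-05) and 2.20 ± 0.30 in Il6-/- recipients (edgeR FDR = 1.30e-05). Without both replicate 2 libraries, the log2 fold changes were 2.25 ± 0.20 and 2.42 ± 0.20. The handling-induced genes were also lowest in those libraries, and their part in the level of Dnajb9 was not tested. A microRNA gene, Mir5627, overlaps an exon of Dnajb9 on the other strand.

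Both lectin chaperones and the 3 disulfide isomerases fell in both recipients. Canx, which encodes calnexin, the membrane-bound lectin that holds glycoproteins during folding, measured 633, 556 and 579.6 CPM in the WT Day 3 libraries and 703, 665 and 646 CPM in the Il6-/- Day 3 libraries. Canx levels on Day 5 were 240.5, 263 and 259 CPM (WT) and 269.9, 353 and 287 CPM (Il6-/-). The days did not overlap, with log2 fold changes of -1.21 ± 0.09 in WT (edgeR FDR = 8.00e-08) and -1.15 ± 0.09 in Il6-/- recipients (edgeR FDR = 9.27e-08). Calr, which encodes calreticulin, the soluble counterpart of calnexin, had Day 3 means of 627 ± 53.1 CPM (WT) and 769 ± 74.5 CPM (Il6-/-), and Day 5 means of 364 ± 20.1 CPM and 418 ± 79.7 CPM (SD, n = 3). Its log2 fold changes were -0.79 ± 0.12 and -0.88 ± 0.12 (edgeR FDR = 3.87e-05 and 1.03e-05).

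Pdia6, a disulfide isomerase that works with BiP, measured 371, 309.9 and 325 CPM in the WT Day 3 libraries and 410.1, 373 and 375 CPM in the Il6-/- Day 3 libraries. Pdia6 levels on Day 5 were 151, 161 and 158 CPM (WT) and 151, 201 and 171 CPM (Il6-/-). All Day 5 levels were below those of Day 3, with log2 fold changes of -1.10 ± 0.10 in WT (edgeR FDR = 3.25e-07) and -1.14 ± 0.10 in Il6-/- recipients (edgeR FDR = 1.63e-07). Pdia3, the isomerase that works with calnexin and calreticulin, had smaller log2 fold changes of -0.50 ± 0.06 and -0.52 ± 0.06 (edgeR FDR = 5.77e-06 and 3.20e-06). Exons of Pdia3 overlap Catsper2, Ell3 and Serinc4 on the other strand. Pdia4, another isomerase, had -0.49 ± 0.09 and -0.59 ± 0.09 (edgeR FDR = 3.93e-04 and 7.22e-05).

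**Figure D2:**
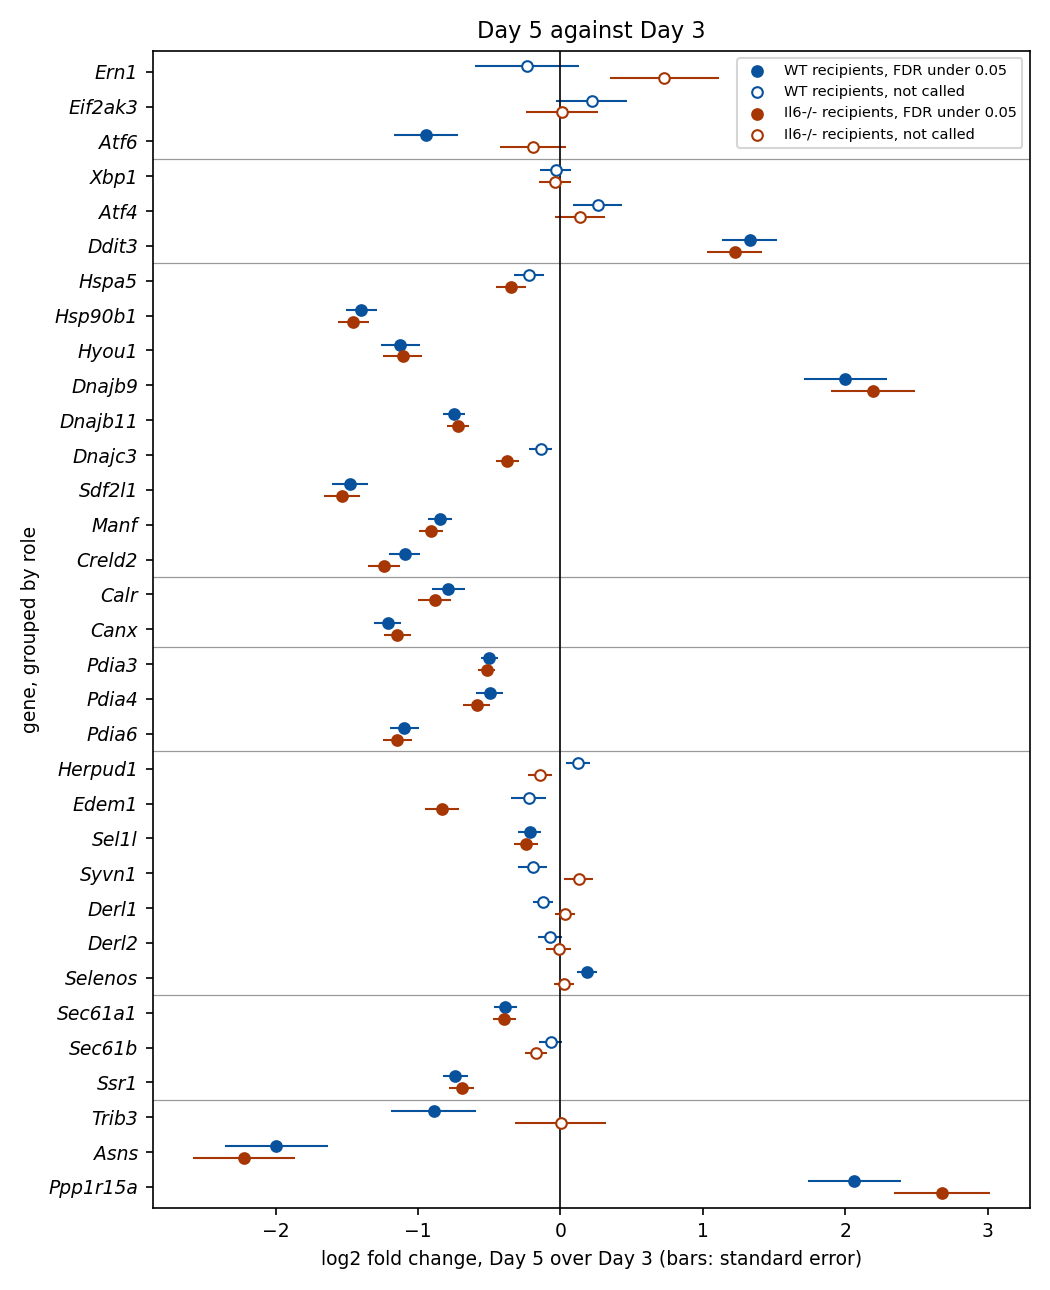
Log2 fold change from Day 3 to Day 5 of each gene tested, in cells primed in WT and in Il6-/- recipients (separate colors), with standard errors as bars and filled points for an edgeR FDR under 0.05. For 15 genes both points are filled left of 0 and for 3 genes right of 0, with Ppp1r15a (2.06 and 2.68) and Asns (-1.99 and -2.22) at the ends.

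The promoters of these genes are shown as a description, and their part in the changes by day was not tested. The ER stress response element (ERSE) consists of CCAAT and CCACG with 9 bases between them, and is known to be bound by NF-Y together with ATF6 or XBP1. Promoters were taken from RefSeq, as 250 bases before to 50 bases after each start on GRCm38.p6. On either strand, the element occurred in 39 of 32851 promoters (0.119%) and in those of 8 of the 29 genes that have an entry. The genes were chosen for roles in this response, so these shares are no test. The stretches around the sites are printed 5′ to 3′ on the strand on which the element reads, with CCAAT and CCACG in capitals.
Hspa5 (chr2:34772010-34772058, plus strand): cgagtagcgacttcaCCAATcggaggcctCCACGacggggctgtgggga
Hsp90b1 (chr10:86705623-86705671, minus strand): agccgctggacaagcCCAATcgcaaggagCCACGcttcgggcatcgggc
Hsp90b1 (chr10:86705518-86705566, plus strand): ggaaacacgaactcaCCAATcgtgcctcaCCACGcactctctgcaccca
Dnajc3 (chr14:118937812-118937860, plus strand): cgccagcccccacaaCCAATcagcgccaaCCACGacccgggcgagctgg
Creld2 (chr15:88819505-88819553, minus strand): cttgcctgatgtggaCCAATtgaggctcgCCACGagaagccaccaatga
Calr (chr8:84847060-84847108, plus strand): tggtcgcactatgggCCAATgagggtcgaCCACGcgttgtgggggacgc
Canx (chr11:50325785-50325833, minus strand): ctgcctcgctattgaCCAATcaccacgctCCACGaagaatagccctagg
Pdia6 (chr12:17266476-17266524, plus strand): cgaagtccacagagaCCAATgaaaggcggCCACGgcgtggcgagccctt
Syvn1 (chr19:6046517-6046565, plus strand): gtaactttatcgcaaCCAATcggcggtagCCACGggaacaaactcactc
The element lay 46 bases upstream of the start in Hspa5, 193 and 88 in Hsp90b1, 86 in Dnajc3, 107 in Creld2, 143 in Calr, 126 in Canx, 79 in Pdia6 and 25 in Syvn1. Of these 8 genes, 5 (Hsp90b1, Creld2, Calr, Canx and Pdia6) fell in both recipients, beside 15 of all 33 genes tested. Hspa5 and Dnajc3 were called lower in Il6-/- recipients, and Syvn1 was not called. Sdf2l1, Dnajb11, Pdia3, Pdia4, Sel1l, Ssr1 and Asns fell in both recipients with no ERSE in their windows.

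A second form, ERSE-II (ATTGG and CCACG with 1 base between them), occurred in 12 promoters (0.0365%), among them those of Dnajb11 and Herpud1. In Herpud1 it lay 41 bases upstream (chr8:94386362-94386402, plus strand).
Herpud1: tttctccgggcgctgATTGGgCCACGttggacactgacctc
The UPR element core TGACGTG, known to be bound by XBP1 and ATF6, occurred in 661 promoters (2.01%). Of the 29 genes, Hspa5 held it, 150 bases upstream (chr2:34771918-34771954, plus strand).
Hspa5: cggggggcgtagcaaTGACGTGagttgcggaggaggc
The composite C/EBP-ATF element (TGATG, 1 base and AAT), read by ATF4 and CHOP, occurred in 317 promoters (0.965%) and in none of the 29 genes. The windows of Dnajb9, Ppp1r15a and Ddit3, the genes that rose in both recipients, held none of the 4 elements. That says only that these letters are not in a window of 300 bases, and a match is likewise a description of the letters.

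ERAD genes changed less by day, apart from Edem1, which is described with the recipient genotype. Of the 7, Selenos rose and Sel1l fell in WT recipients, and Edem1 and Sel1l fell in Il6-/- recipients, with median log2 fold changes of -0.12 and -0.01. Sel1l, the adaptor of the HRD1 ubiquitin ligase, had -0.22 ± 0.08 in WT (edgeR FDR = 0.0358) and -0.24 ± 0.08 in Il6-/- recipients (edgeR FDR = 0.0195). Its call in WT recipients was lost without any of 5 of the 6 WT libraries, all but WT Day 3 replicate 2 (edgeR FDR = 0.0598 to 0.144). In Il6-/- recipients it was lost without Il6-/- Day 3 replicate 3 or Il6-/- Day 5 replicate 1 or 3 (edgeR FDR = 0.0561 to 0.0854). Without a scaling factor, Sel1l was called in neither recipient (edgeR FDR = 0.107 in WT and 0.366 in Il6-/-). Selenos, which links the ERAD channel to the VCP ATPase, had 0.19 ± 0.07 in WT recipients (edgeR FDR = 0.0383). That call was lost without any of 8 libraries, all but WT Day 5 replicate 1, Il6-/- Day 3 replicate 3 and Il6-/- Day 5 replicates 1 and 3 (edgeR FDR = 0.0511 to 0.153). It was also lost under 6 of 11 other settings, among them RLE scaling, DESeq2 and the 6 WT libraries alone (FDR by edgeR or DESeq2 = 0.0818 to 0.964). Herpud1, Syvn1 (the HRD1 ligase), Derl1 and Derl2 (parts of the ERAD channel) were not called in either recipient. Their log2 fold changes lay between -0.20 (Syvn1 in WT recipients) and 0.13 (Syvn1 in Il6-/- recipients).

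In the translocon, Sec61a1 and Ssr1 fell in both recipients and Sec61b was not called. Ssr1, a subunit of the TRAP complex beside the channel, had Day 3 means of 216 ± 11.8 CPM (WT) and 237 ± 3.53 CPM (Il6-/-), and Day 5 means of 129 ± 12.8 CPM and 146 ± 12.3 CPM (SD, n = 3). Its log2 fold changes were -0.74 ± 0.09 and -0.69 ± 0.09 (edgeR FDR = 4.12e-06 and 6.05e-06). Sec61a1, the subunit that forms the channel, had -0.39 ± 0.08 and -0.39 ± 0.08 (edgeR FDR = 7.34e-04 and 5.79e-04). Sec61b, another subunit of the channel, had -0.07 ± 0.08 and -0.17 ± 0.08 (edgeR FDR = 0.478 and 0.0738).

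The targets of the integrated stress response moved in opposite directions by day. Ppp1r15a had the largest rise and Asns the largest fall of the 33 genes in both recipients, and their libraries are given for that reason, chosen after their values were seen. Ppp1r15a, which encodes GADD34, the subunit that directs a phosphatase to eIF2, measured 98.5, 106 and 45.4 CPM in the WT Day 3 libraries and 64.3, 68.1 and 36.8 CPM in the Il6-/- Day 3 libraries. Ppp1r15a levels on Day 5 were 420.1, 224 and 402 CPM (WT) and 419.8, 234 and 427 CPM (Il6-/-). The days did not overlap, replicate 3 was the lowest on Day 3 in both recipients, and replicate 2 was the lowest on Day 5 in both. Ppp1r15a rose by 2.06 ± 0.33 on the log2 scale in WT (edgeR FDR = 7.52e-05) and by 2.68 ± 0.34 in Il6-/- recipients (edgeR FDR = 6.27e-06). Without both Day 5 replicate 2 libraries the rises were 2.26 ± 0.28 and 2.93 ± 0.29. As with Dnajb9, the part of the handling-induced genes was not tested.

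Asns, which encodes asparagine synthetase, measured 2.85, 3.07 and 4.13 CPM in the WT Day 3 libraries and 5.28, 3.66 and 4.74 CPM in the Il6-/- Day 3 libraries. Asns levels on Day 5 were 0.611, 1.09 and 0.799 CPM (WT) and 0.847, 1.46 and 0.625 CPM (Il6-/-). Every Day 5 library was below every Day 3 library, with log2 fold changes of -1.99 ± 0.36 in WT (edgeR FDR = 2.54e-04) and -2.22 ± 0.36 in Il6-/- recipients (edgeR FDR = 7.32e-05). Exons of Asns overlap a gene on the other strand, 1700012J15Rik. Trib3, a pseudokinase induced by CHOP, measured 3.35, 3.71 and 4.23 CPM in the WT Day 3 libraries and 1.74, 1.96 and 1.18 CPM in the Il6-/- Day 3 libraries. Trib3 levels on Day 5 were 2.14, 1.87 and 2.07 CPM (WT) and 1.53, 2.11 and 1.25 CPM (Il6-/-). The WT Day 3 libraries were above all 9 others. Trib3 fell by day in WT recipients (-0.89 ± 0.30, edgeR FDR = 0.0197), and the call was lost without WT Day 3 replicate 3 or WT Day 5 replicate 2 (edgeR FDR = 0.0666 and 0.054). In Il6-/- recipients its log2 fold change was 0.00 ± 0.32 (edgeR FDR = 0.999), and the difference between recipients was not called (0.89 ± 0.44, edgeR FDR = 0.268).

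**Figure D3:**
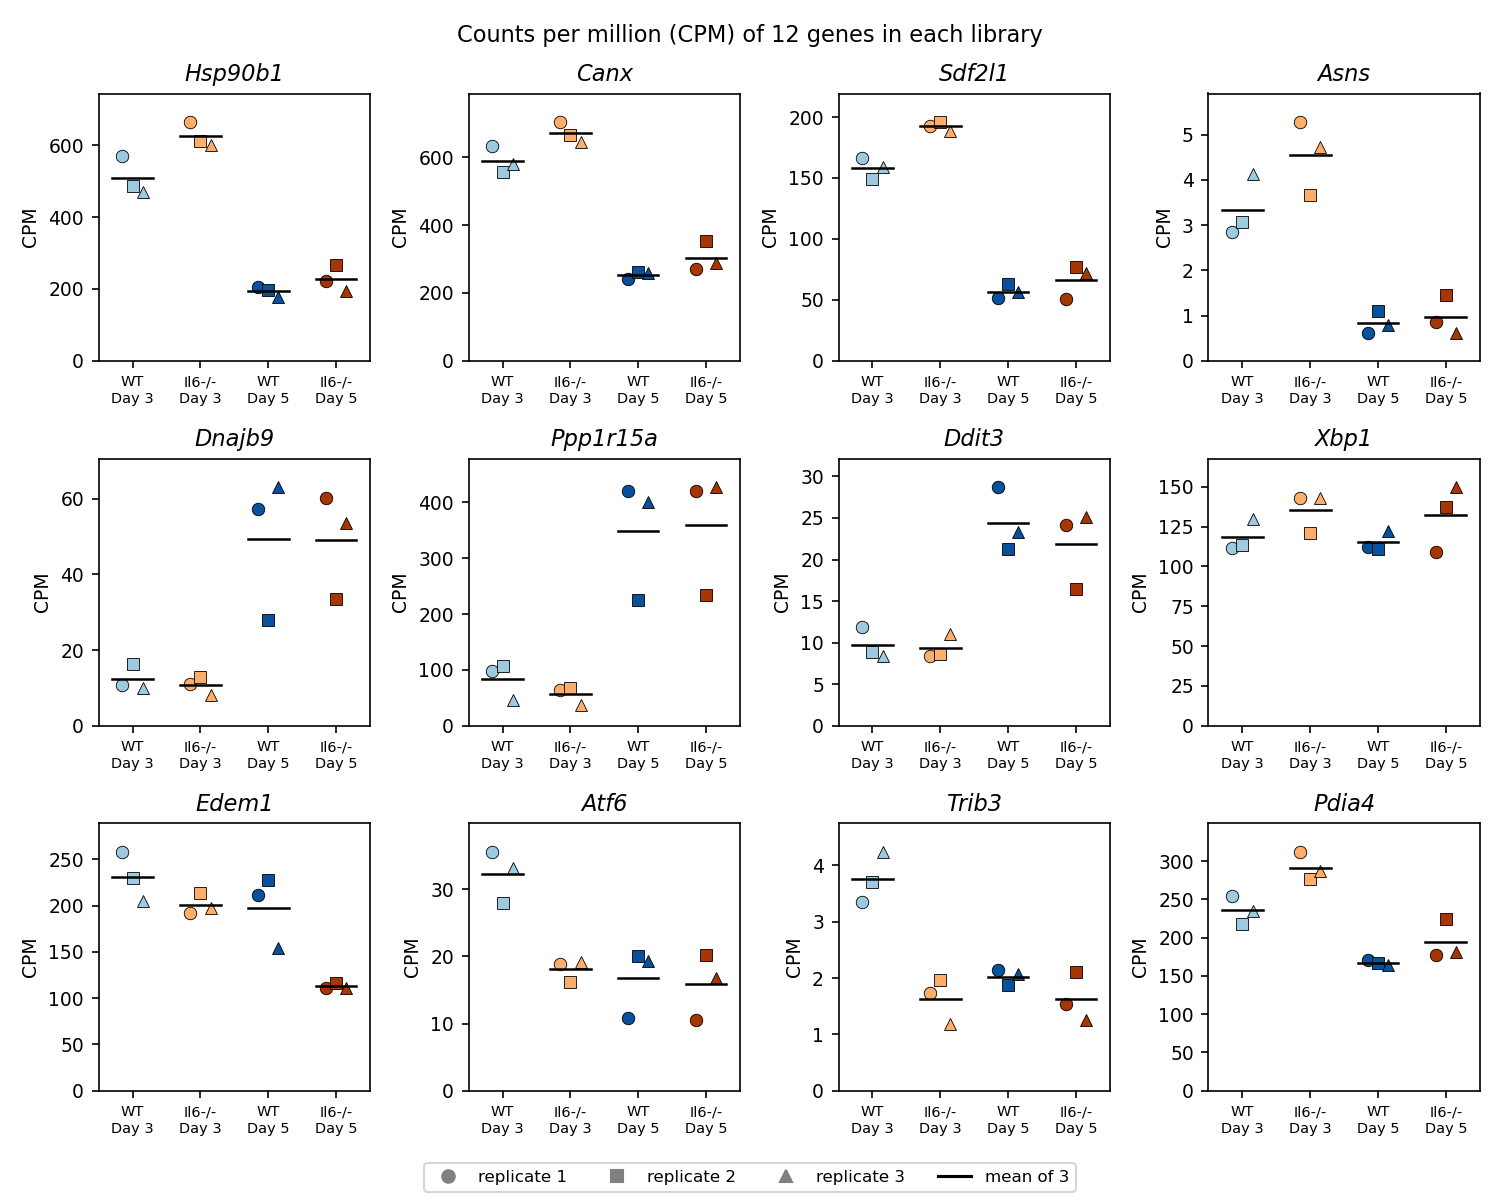
CPM of 12 genes in each library (points, with a shape for each replicate number) by group, with the mean of 3 as a line and each axis starting at 0. Hsp90b1, Canx, Sdf2l1 and Asns are lower and Dnajb9, Ppp1r15a and Ddit3 higher in all Day 5 libraries, and Edem1 is lowest in the 3 Il6-/- Day 5 libraries.

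Levels between genes were compared per length, as CPM divided by the length of the canonical transcript in kilobases (kb). In WT recipients on Day 3, the highest were Pdia3 at 278 ± 3.09 CPM per kb (SD, n = 3), Calr at 274 ± 23.2, Hsp90b1 at 179.6 ± 18.7, Sec61b at 170.2 ± 6.14 and Canx at 155 ± 10.3 CPM per kb. Pdia3 and Calr lay within their spread of each other, as did Hsp90b1 and Sec61b. Hspa5 was at 105 ± 9.97 CPM per kb. Exons of Hspa5 and Pdia3 overlap other genes on the other strand, which the length does not take into account, so their places are uncertain. On Day 5 in WT recipients, the highest were Pdia3 at 196 ± 3.29, Sec61b at 162 ± 14.7, Calr at 159 ± 8.80 and Ppp1r15a at 149 ± 46.3 CPM per kb. Sec61b, Calr and Ppp1r15a lay within the spread of Ppp1r15a, which had been at 35.7 ± 14.2 CPM per kb on Day 3. After Chac1, the lowest on Day 3 in WT recipients were Asns at 0.683 ± 0.139, Ern1 at 0.683 ± 0.112, Eif2ak3 at 1.59 ± 0.707 and Trib3 at 1.80 ± 0.212 CPM per kb. Ddit3 has no value on this scale, since 2 entries of the annotation share its name.

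The second comparison was between cells primed in Il6-/- and in WT recipients, on each day. On Day 3, 2 of the 33 genes were higher (Herpud1 and Pdia4) and 2 lower (Trib3 and Atf6) in Il6-/- recipients at an edgeR FDR under 0.05. Over all genes, 7.52% were higher and 6.19% lower, so in this fit the members' shares were near the background. The median log2 fold change was 0.09 over the 33 genes and 0.01 over all genes tested. When only the 6 Day 3 libraries were fitted, 8 genes were higher (Sdf2l1, Pdia4, Hsp90b1, Calr, Atf4, Creld2, Herpud1 and Hyou1) and 5 lower (Atf6, Trib3, Derl1, Ern1 and Edem1), against 11.7% and 10.6% of all genes. Both shares were above those of all genes in that fit, so the reading depends on the fit. Derl1 was not called in the fit of all 12 libraries, though its Day 3 groups did not overlap. They lay at 154 to 162 CPM (WT) and 132 to 139 CPM (Il6-/-). Derl1 was also called lower by DESeq2 (FDR = 0.0472) and limma-voom (FDR = 0.0491). The same held without a scaling factor (edgeR FDR = 0.0273) and without both Day 5 replicate 2 libraries (edgeR FDR = 0.0232).

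Herpud1, an ERAD scaffold protein, measured 94.0, 85.7 and 92.7 CPM in the WT Day 3 libraries and 116, 99.6 and 115 CPM in the Il6-/- Day 3 libraries. Herpud1 levels on Day 5 were 94.4, 101 and 101 CPM (WT) and 106, 93.6 and 100.3 CPM (Il6-/-). The Day 3 groups did not overlap and the Day 5 groups did, with a log2 fold change on Day 3 of 0.28 ± 0.08 (edgeR FDR = 0.0332). The call was lost without any of the WT Day 3 libraries and without Il6-/- Day 3 replicate 1 or 3 (edgeR FDR = 0.0537 to 0.156). It was also lost without both Day 5 replicate 2 libraries (edgeR FDR = 0.0564) and when genes of low count were kept in the fit (edgeR FDR = 0.0758). Pdia4, a disulfide isomerase, measured 255, 218 and 234 CPM in the WT Day 3 libraries and 312, 276 and 287 CPM in the Il6-/- Day 3 libraries. Pdia4 levels on Day 5 were 171, 167 and 164 CPM (WT) and 177, 225 and 181 CPM (Il6-/-). Its groups did not overlap on Day 3, with a log2 fold change of 0.31 ± 0.09 (edgeR FDR = 0.042). It was not called without WT Day 3 replicate 2 or 3, WT Day 5 replicate 2 or any of the Il6-/- Day 3 libraries (edgeR FDR = 0.0548 to 0.186). With a replicate block over all libraries Pdia4 was not called (edgeR FDR = 0.0529), and with a block on each day it was (edgeR FDR = 0.00816). Without a scaling factor, neither gene was called (edgeR FDR = 0.0883 for Herpud1 and 0.101 for Pdia4).

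On Day 3, the Il6-/- libraries lay below the WT libraries for both Trib3 and Atf6, whose levels are given with the days. Trib3 was 2.31-fold lower in Il6-/- recipients (-1.21 ± 0.30 on the log2 scale, edgeR FDR = 0.0159). It lost its call without WT Day 3 replicate 2 or 3 or Il6-/- Day 3 replicate 3 (edgeR FDR = 0.0536 to 0.0653). Atf6 was 1.78-fold lower (-0.83 ± 0.23, edgeR FDR = 0.0233), and lost its call without WT Day 3 replicate 1 or 3 or any of the Il6-/- Day 3 libraries (edgeR FDR = 0.0539 to 0.0976). The other sensors were not called, with -0.94 ± 0.38 for Ern1 (edgeR FDR = 0.119) and -0.12 ± 0.25 for Eif2ak3 (edgeR FDR = 0.82). Nor were the transcription factors Xbp1 (0.20 ± 0.11), Atf4 (0.35 ± 0.18) and Ddit3 (-0.05 ± 0.20), with edgeR FDRs of 0.278, 0.222 and 0.907. The chaperones Creld2, Hsp90b1, Calr and Hspa5 had log2 fold changes of 0.30 ± 0.11, 0.30 ± 0.11, 0.29 ± 0.12 and 0.25 ± 0.10, none of them called (edgeR FDR = 0.0771 to 0.127). Of the stress response targets, Ppp1r15a had -0.57 ± 0.32 and was not called (edgeR FDR = 0.286). With the replicate number as a block, separately on each day, 9 of the 33 genes were higher and 5 lower. Over all genes these shares were 10.9% and 8.7%. The 9 included Hsp90b1, Hspa5, Calr and Creld2 (edgeR FDR = 0.00701 to 0.0299) and Atf4 (edgeR FDR = 0.00247). The 5 included Ppp1r15a (-0.53 ± 0.07, edgeR FDR = 2.41e-04) and Ern1 (edgeR FDR = 0.0358). The deviations of same-numbered Day 3 libraries correlated at only 0.03 to 0.06.

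On Day 5, none of the 33 genes was higher and 1 was lower in cells primed in Il6-/- recipients by edgeR, against 1.27% of all genes that were higher and 3.35% that were lower. At an unadjusted p under 0.05 there were 6, but the share of all genes at that limit was not computed, so that count has no background. The median log2 fold change was 0.06 over the 33 genes and 0.01 over all genes. The gene that was lower was Edem1, which encodes a lectin that hands misfolded glycoproteins to degradation, on chr6:108805457-108838955 of GRCm39 (plus strand). Edem1 measured 258, 230.2 and 205 CPM in the WT Day 3 libraries and 192, 213 and 198 CPM in the Il6-/- Day 3 libraries. Edem1 levels on Day 5 were 211, 228 and 154 CPM (WT) and 111, 116 and 111 CPM (Il6-/-). The Il6-/- Day 5 libraries were below all 9 others. Edem1 was 1.75-fold lower on Day 5 (-0.81 ± 0.12, edgeR FDR = 0.0025), and had -0.20 ± 0.12 on Day 3 (edgeR FDR = 0.314). The difference between the days was -0.61 ± 0.17 (edgeR FDR = 0.0539). From Day 3 to Day 5, Edem1 fell in Il6-/- recipients (-0.83 ± 0.12, edgeR FDR = 2.81e-05) and had -0.22 ± 0.12 in WT recipients (edgeR FDR = 0.124). Its lower level on Day 5 was called without any 1 of the 12 libraries and without both Day 5 replicate 2 libraries (-0.70, edgeR FDR = 0.0487). Over 69 bases, exons of Edem1 overlap Gm35417 on the other strand.

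On Day 5, same-numbered libraries of both recipients deviated together. With the replicate number entered as a block, separately on each day, 3 of the 33 genes were higher and 2 lower on Day 5, against 5.43% and 6.3% of all genes. The higher ones were Canx (0.25 ± 0.06, edgeR FDR = 0.0242), Hsp90b1 (0.23 ± 0.07, edgeR FDR = 0.0489) and Atf4 (0.22 ± 0.07, edgeR FDR = 0.0491). The lower ones were Edem1 (-0.79 ± 0.10, edgeR FDR = 2.77e-04) and Dnajc3 (-0.22 ± 0.06, edgeR FDR = 0.0423). Without the block, Canx had 0.25 ± 0.09, Hsp90b1 0.24 ± 0.11, Atf4 0.22 ± 0.17 and Dnajc3 -0.22 ± 0.08, none of them called (edgeR FDR = 0.135 to 0.529).

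**Figure D4:**
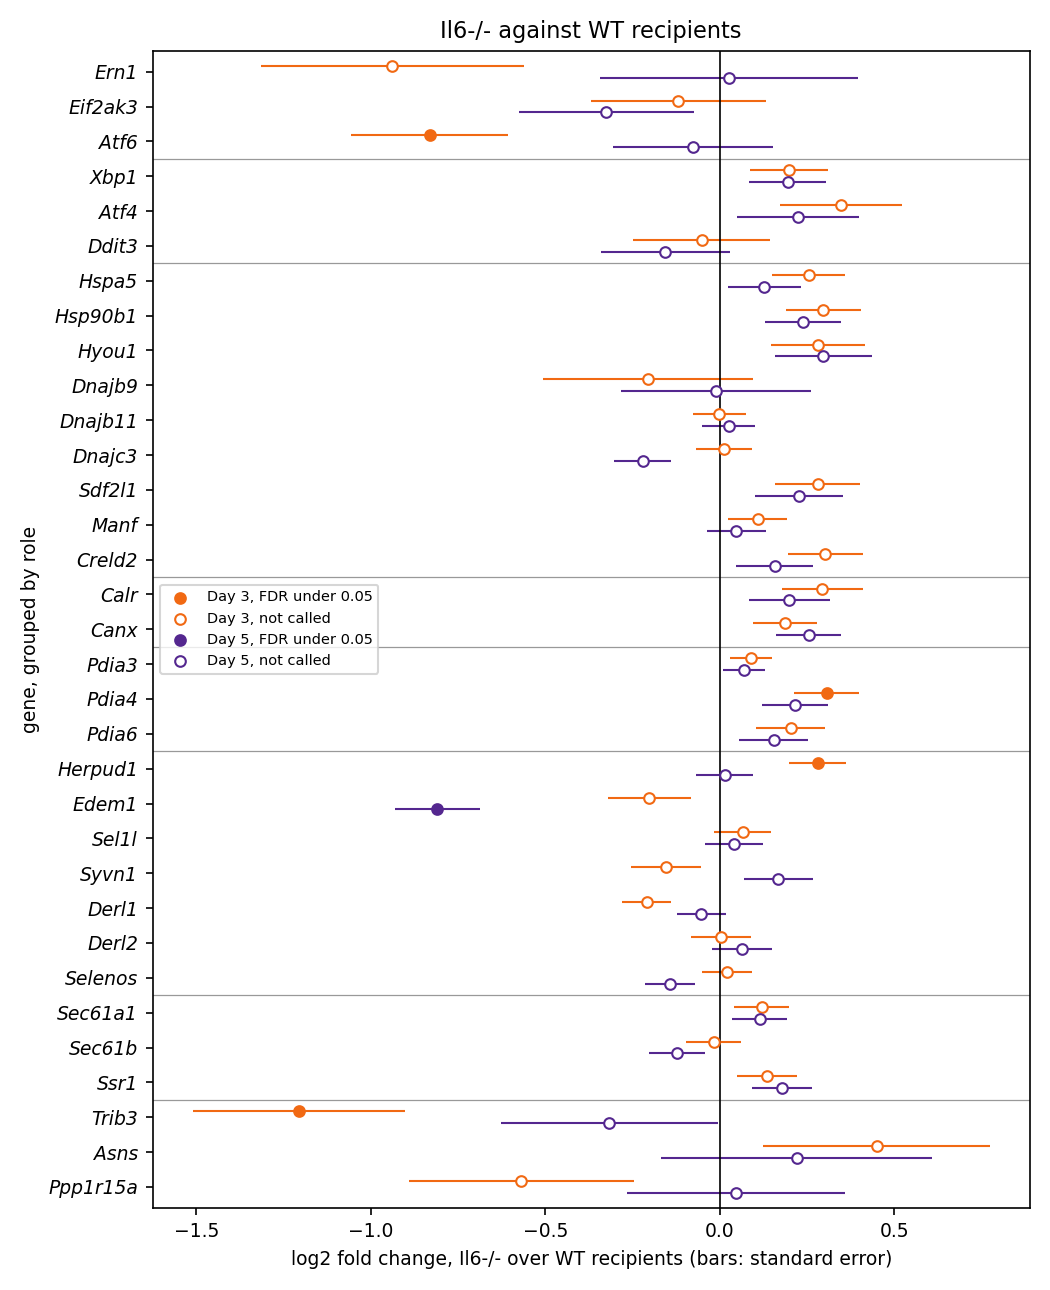
Log2 fold change of each gene tested in Il6-/- over WT recipients on Day 3 and Day 5 (separate colors), with standard errors as bars and filled points for an edgeR FDR under 0.05. On Day 3, Trib3 (-1.21) and Atf6 (-0.83) are filled on the left and Pdia4 (0.31) and Herpud1 (0.28) on the right, and on Day 5 the filled point is Edem1 (-0.81).

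The third comparison asked whether the effect of the recipient genotype differed from Day 3 to Day 5 (the interaction). None of the 33 genes was called by edgeR, against 1.8% of all genes with a positive and 3.12% with a negative interaction. At an unadjusted p under 0.05 there were 4, namely Edem1 (-0.61 ± 0.17), Atf6 (0.75 ± 0.32), Herpud1 (-0.27 ± 0.12) and Syvn1 (0.32 ± 0.14), with edgeR FDRs of 0.0539 to 0.211. Here too the share of all genes at that limit was not computed. DESeq2 called 1 negative interaction (5.65% of all genes) and limma-voom none (2.77%). With the block, Ppp1r15a and Atf6 were called positive and Edem1 negative, against 5.28% and 6.24% of all genes, shares near that background. That block also held the Day 3 numbers, although the deviations of same-numbered Day 3 libraries correlated at only 0.03 to 0.06. The median was -0.05 over the 33 genes and 0.00 over all genes.

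Of 127 further genes of the same pathways, 119 were tested. From Day 3 to Day 5, 21 rose and 54 fell in WT recipients, and 19 rose and 58 fell in Il6-/- recipients, with median log2 fold changes of -0.20 and -0.23. Over all genes 29.5% rose and 27.1% fell in WT recipients, and 30.4% rose and 30.1% fell in Il6-/- recipients, against which the counts that follow are to be read. The 11 aminoacyl-tRNA synthetases tested, which charge tRNAs and several of which are ATF4 targets like Asns, all fell in both recipients, with medians of -1.18 and -1.28. In WT recipients, Gars (glycyl) went from 270.3 ± 14.8 to 109 ± 10.3 CPM (-1.31 ± 0.11, edgeR FDR = 1.50e-07) and Cars (cysteinyl) from 60.3 ± 5.51 to 24.2 ± 3.48 CPM (-1.32 ± 0.13, edgeR FDR = 6.06e-07). Of 10 oligosaccharyltransferase genes, which attach N-glycans, 7 fell and 2 rose in WT recipients, and 7 fell and none rose in Il6-/- recipients. Magt1 was one of them, going from 116 ± 1.52 to 57.0 ± 2.94 CPM in WT recipients (-1.02 ± 0.09, edgeR FDR = 2.26e-07). In ER to Golgi transport, 14 of 24 fell and 3 rose in WT and 12 fell and 3 rose in Il6-/- recipients, with a fall in WT recipients of Sec13, a subunit of the COPII coat (-0.75 ± 0.09, edgeR FDR = 3.60e-06). Of 21 other targeting and translocation factors, 7 fell and 4 rose in WT and 11 fell and 2 rose in Il6-/- recipients. In WT recipients Spcs3, a subunit of signal peptidase, fell (-0.81 ± 0.10, edgeR FDR = 1.08e-05) and Sec62 rose (0.73 ± 0.10, edgeR FDR = 2.91e-05).

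The other folding and ERAD factors were divided. Of 16 folding factors tested, 5 fell and 4 rose in WT and 5 fell and 2 rose in Il6-/- recipients. P4hb, a disulfide isomerase, in WT recipients went from 382 ± 19.1 to 269 ± 13.5 CPM (-0.51 ± 0.08, edgeR FDR = 1.15e-04). Of 15 other ERAD factors, 3 fell and 6 rose in WT and 5 fell and 5 rose in Il6-/- recipients. In WT recipients, Vcp, the ATPase that extracts ERAD substrates, fell (-0.89 ± 0.09, edgeR FDR = 9.76e-07) and the lectin gene Erlec1 rose (0.85 ± 0.12, edgeR FDR = 3.67e-05). Of 14 other regulators of the UPR and eIF2, 5 fell and 1 rose in WT and 5 fell and 5 rose in Il6-/- recipients. In WT recipients Eif2s1, which encodes the subunit of eIF2 that PERK phosphorylates, went from 355 ± 20.4 to 162 ± 21.3 CPM (-1.14 ± 0.10, edgeR FDR = 2.21e-07). Of 8 other ATF4 and CHOP targets tested, 2 fell and 2 rose in Il6-/- recipients, and in WT recipients Ero1a (-0.64 ± 0.11) and Cebpg (-0.72 ± 0.16) fell and 1 rose (edgeR FDR = 1.29e-04 and 0.00133).

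On Day 3, 12 of the 119 further genes were higher and 2 lower in cells primed in Il6-/- recipients, against 7.52% and 6.19% of all genes. Of the 12, 6 were aminoacyl-tRNA synthetases. Iars (isoleucyl) was at 155 ± 17.6 CPM (WT) and 253 ± 21.6 CPM (Il6-/-), a log2 fold change of 0.71 ± 0.11 (edgeR FDR = 9.37e-04). Eprs (glutamyl-prolyl) was at 222 ± 22.6 and 308 ± 24.1 CPM (0.47 ± 0.11, edgeR FDR = 0.0085). Eif2s1 was also higher (0.43 ± 0.10, edgeR FDR = 0.00833), as was Mogs, the glucosidase that starts the trimming of N-glycans (0.58 ± 0.12, edgeR FDR = 0.00592). The lower ones were Creb3l2, an ER-anchored transcription factor (-0.83 ± 0.24, edgeR FDR = 0.0334), and Ddit4, a stress-induced inhibitor of mTORC1 (-0.49 ± 0.12, edgeR FDR = 0.0145). On Day 5, none of the 119 was higher and 4 were lower by edgeR, against 1.27% and 3.35% of all genes.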

How the data were processed

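Poly(A) RNA of sorted OTII cells was sequenced as single-end reads of 50 bp. Per the study's methods, the authors trimmed reads with Trim Galore 0.4.4 (with options for paired reads), aligned to GRCm39 (STAR 2.5.2a) and counted reads on genes with HTSeq 0.6.1p1, ignoring strand. Values as deposited are raw read counts per gene symbol in each library. The authors' table of CPM was not used here, and 5 summary lines of each count file were left out. Counts of all genes kept by filterByExpr were scaled by TMM and fitted with edgeR 4.0.16 in R 4.3.3 (quasi-likelihood, 1 coefficient per group, 12 libraries), FDRs were adjusted over all 13570 genes, and CPM use TMM-scaled library totals. The edgeR fit was also run on simulated counts. These had few changed genes and the same spread for all genes, unlike the data here, so no result rests on that run. A count of 3 is 1.15e-05% to 1.86e-05% of a library, and such limits cover counting error only.

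The labels gave the groups. The members and lists were chosen with earlier results of these data known. Levels in each library are given for the sensors, the transcription factors and up to 6 genes with the smallest p of those called in a comparison, with exceptions stated there, and further pathway genes by the smallest p, at most 2 a list in each of 2 comparisons. Of the 34 genes, 33 were matched to GENCODE vM39 by symbol, and exons of 14 overlap another gene. The deviations of same-numbered WT and Il6-/- libraries correlated at 0.24, 0.21 and 0.13 on Day 5 and at 0.03, 0.06 and 0.03 on Day 3, so that the numbers were taken to pair the Day 5 libraries. The block on each day also held the Day 3 numbers, in the Day 3 and interaction results. Alternatives were RLE scaling, no scaling factor, other filters on low counts, DESeq2 1.42.0, limma-voom (limma 3.58.1), replicate blocks, the 6 libraries of a comparison alone, offsets for GC content and gene length, a limit of 2-fold, each library left out and, added after seeing the data, both Day 5 replicate 2 libraries left out.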

Additional observations from a re-analysis of the deposited data

How the results depend on the processing

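Of 47 called values of single genes, 1030 of 1082 values under alternatives kept direction and threshold, 51 lost the threshold and 1 changed sign, namely Selenos by day in WT recipients with the gene length offset (log2 fold change -0.0042). Most of the 47 were changes by day. Between recipients on Day 3, Herpud1, Pdia4, Trib3 and Atf6 each lost their call when any of several single libraries was left out, as given above. Counts of called genes moved by over 1.5 times as follows, and the cause was not tested. By day, a limit of 2-fold left 7 falling genes in WT (9.39% of all genes) and 7 in Il6-/- recipients (11.4%). The length offset left 2 rising in WT recipients. No scaling factor, which moved the median of all genes by 0.15, gave 5 rising in Il6-/- recipients (37.5% of all genes). On Day 3, higher genes numbered 0 without a scaling factor (5.18% of all genes), 8 with 6 libraries (11.7%) and 1 without both Day 5 replicate 2 libraries (6.78%). Higher genes also numbered 0 with a limit of 2-fold and 4 without a filter. Lower genes numbered 5 with 6 libraries (10.6% of all genes), 4 without a filter and 1 with a limit of 2-fold. Leaving out each library gave 0 to 3 higher and 0 to 3 lower. On Day 5, a limit of 2-fold left 0 lower, and leaving out each library gave 0 to 2 higher. In the interaction, no filter gave 2 positive and 1 negative, and DESeq2 gave 1 negative (5.65% of all genes). The GC content and length offsets gave 1 negative each, and leaving out each library 0 to 1 negative. Shares of all genes were not computed for filters, offsets, single libraries left out, the block over all libraries or, between recipients, the limit of 2-fold. With the replicate number as a block, separately on each day, 9 genes were higher (Atf4, Hsp90b1, Pdia4, Hspa5, Herpud1, Calr, Sdf2l1, Creld2 and Pdia6) and 5 lower (Atf6, Ppp1r15a, Trib3, Ern1 and Derl1) on Day 3, above the 10.9% and 8.7% of all genes, 3 higher and 2 lower on Day 5, and 2 positive (Ppp1r15a and Atf6) and 1 negative (Edem1) in the interaction. A replicate block over all libraries gave 1 negative interaction and moved no other count by over 1.5 times, with Pdia4 no longer called on Day 3 (edgeR FDR = 0.0529), although every WT library correlated best with its own number on both days. Between 16125947 and 26111657 counts a library limit what low genes such as Asns, Ern1 and Trib3 can show.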
